A study of Drosophila melanogaster with 2 samples.

Results

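Lk6 and 8 genes of the insulin and TOR growth pathway (InR, chico, Akt, foxo, S6k, Thor, Tor and Rheb) were followed through the binding map of CG9876 in Drosophila melanogaster embryos. These are 9 of the 13945 protein-coding genes annotated on dm6. Lk6 was chosen by its measured signal, since it holds one of the strongest peaks of the whole map, and the other 8 genes were added by pathway with results of the map known. The rank of Lk6 is therefore a description. All samples form a single group of whole embryos, both sexes pooled, 0 to 24 h old, of the transgenic strain CG9876-GFP, which stably expresses CG9876 with GFP at its C-terminal end. Chromatin was sonicated (size range 200 to 800 per the labels) and, per the description of the samples, precipitated with an antibody against GFP in 2 biological replicates of that 1 line. Another label field names CG9876 as the antibody, and these data do not settle which was used. No untagged or untreated embryos are among the samples, and the control behind the peak calls was not analysed here. Whole embryos of this age range mix every tissue and stage, so a peak cannot be placed in a cell type. It also cannot be said from these data whether binding of the tagged protein matches that of the untagged one.

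Insulin-like peptides bind the receptor InR, which signals through the adaptor chico and PI 3-kinase to the protein kinase Akt. Akt keeps the transcription factor foxo out of the nucleus and releases the GTPase Rheb from its inhibitors, and Rheb activates the protein kinase Tor. Tor promotes translation through the kinase S6k and by inactivating Thor, the fly 4E-BP that holds the cap-binding protein eIF4E. Lk6, the fly counterpart of the mammalian Mnk kinases, phosphorylates eIF4E, so Lk6 and Thor act on the same initiation factor. CG9876 encodes a homeodomain protein.

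The map holds 2433 reproducible peaks, called across both replicates, and a combined list of 30000 candidate regions that reaches far below them. Each replicate has its own list of 30000 regions. Regions are described by their summit, by the authors' signal value and by their rank on signal within a list. Reproducible peaks had a median signal of 128.1 and ran from 85.4 to 1939.5 in the combined list, and every one of them lay among the strongest 2433 combined regions. Between the replicates, the log2 ratio of signals (replicate 1 over replicate 2) had a median of 0.09 and an SD of 0.61 over the 2363 peaks found in both.

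Of the 9 genes, 6 held a reproducible peak in the gene or within 2 kb of it (Lk6, InR, Akt, foxo, Thor and Tor), and 3 held none (chico, S6k and Rheb). Over all protein-coding genes, 24.7% held one by the same rule. A reproducible peak within 1 kb of a transcription start site (TSS) was found at 5 of the 9 genes (Lk6, InR, Akt, Thor and Tor), against 15.8% of all genes. More than 1 peak was found at Lk6, InR and Akt, against 5.14% of all genes. Long genes hold peaks more often. With all genes divided into 4 equal groups by length, 37.3% of the longest group held one and 13.5% of the shortest, and 6 of the 9 genes belong to the longest group. At the lengths of the 9 genes, all genes would hold a peak in 31.7% and a promoter peak in 19.6% of cases. The share with more than 1 peak was not matched for length, and Lk6, InR and Akt all belong to the longest group. With 9 genes chosen in view of the data, the counts 6 and 5 are a description beside these shares. The 6 genes carried 10 reproducible peaks.

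The sequences under the peaks that the account turns on are printed first, since the peaks of Lk6, InR, Thor, Tor and foxo differ in what they contain. Each runs 5′ to 3′ on the strand of the named gene, from the RefSeq dm6 genome, and covers 100 bp on either side of the combined summit with exonic bases removed. For Thor, whose summit is exonic, the 144 bases before the gene are shown, searched only within 100 bp of the summit. Capitals mark the motifs named after the sequences, on either strand.
Lk6 intronic peak, chr3R:11760963-11761163 (- strand): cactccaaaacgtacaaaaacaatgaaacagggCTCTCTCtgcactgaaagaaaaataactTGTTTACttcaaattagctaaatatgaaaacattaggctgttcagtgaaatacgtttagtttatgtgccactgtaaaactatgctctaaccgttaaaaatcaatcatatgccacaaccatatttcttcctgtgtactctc
Lk6 outer promoter, chr3R:11764480-11764680 (- strand): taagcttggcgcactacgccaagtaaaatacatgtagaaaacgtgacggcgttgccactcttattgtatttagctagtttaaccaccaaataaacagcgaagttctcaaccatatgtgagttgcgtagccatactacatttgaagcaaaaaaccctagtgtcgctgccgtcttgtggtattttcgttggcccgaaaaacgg
InR intronic peak near the inner TSS, chr3R:21590731-21590931 (- strand): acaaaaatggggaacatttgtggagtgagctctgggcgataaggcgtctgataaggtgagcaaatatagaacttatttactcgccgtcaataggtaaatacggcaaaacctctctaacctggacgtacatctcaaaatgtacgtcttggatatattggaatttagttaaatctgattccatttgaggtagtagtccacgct
InR intronic peak far from a TSS, chr3R:21613406-21613606 (- strand): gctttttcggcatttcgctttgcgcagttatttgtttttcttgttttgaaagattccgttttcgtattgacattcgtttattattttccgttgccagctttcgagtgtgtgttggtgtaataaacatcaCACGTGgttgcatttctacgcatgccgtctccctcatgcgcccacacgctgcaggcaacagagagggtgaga
InR peak at the outer TSS, chr3R:21619322-21619494 (- strand): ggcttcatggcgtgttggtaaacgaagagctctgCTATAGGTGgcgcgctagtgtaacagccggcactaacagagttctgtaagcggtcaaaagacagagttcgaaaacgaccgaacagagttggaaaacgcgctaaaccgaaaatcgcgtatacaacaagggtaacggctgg
Thor promoter, chr2L:3478290-3478433 (+ strand): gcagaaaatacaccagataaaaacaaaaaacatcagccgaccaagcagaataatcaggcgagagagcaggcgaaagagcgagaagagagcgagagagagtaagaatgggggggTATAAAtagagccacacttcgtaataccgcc
Tor and Vha68-1 peak, chr2L:13004110-13004310 (+ strand): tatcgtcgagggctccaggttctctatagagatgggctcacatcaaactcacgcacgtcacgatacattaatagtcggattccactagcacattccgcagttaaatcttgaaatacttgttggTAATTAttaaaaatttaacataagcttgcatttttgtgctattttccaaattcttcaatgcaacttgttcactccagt
foxo and Npc2b peak, chr3R:14088880-14089080 (+ strand): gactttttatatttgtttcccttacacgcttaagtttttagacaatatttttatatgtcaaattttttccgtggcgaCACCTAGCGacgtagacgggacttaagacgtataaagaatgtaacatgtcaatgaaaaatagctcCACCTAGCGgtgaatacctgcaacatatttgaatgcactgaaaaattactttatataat
The capitals are a GAGA repeat (GAGAGAG) and a FOXO core (GTAAACA) at the Lk6 intronic peak, an E-box (CACGTG) at the InR peak far from a TSS, and a CTCF-like core (CACCTANNG) at the outer InR start and, in 2 copies, at foxo. They are a TATA box (TATAAA) at Thor and a homeodomain core (TAATTA) at Tor. The Lk6 outer promoter and the InR peak near the inner TSS held none of the motifs searched, and the TATA box was left in lower case at foxo, where it occurs in 4 copies.

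Lk6 (FBgn0017581) spans 13527 bp of the minus strand of 3R, from 11750931 to 11764457, with 2 TSSs 4378 bp apart. Its main peak lies in an intron of the longer transcript, at chr3R:11760890-11761213, with its summit at −984 from the inner TSS. The signal there was 722.1 in replicate 1 and 562.4 in replicate 2, and 1283.5 in the combined list. The region ranked 4 in replicate 1, 5 in replicate 2 and 4 in the combined list and was the strongest of the 592 reproducible peaks on 3R. It was 10 times the median peak and reached 66.2% of the strongest. Its log2 replicate ratio of 0.36 lay within 1 SD of the median, and the replicate summits were 19 bp apart, against a median of 23 bp over all peaks. The listed region was 324 bp wide, narrower than the 370 bp that most peaks share, as 15.7% of peaks were.

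The second Lk6 peak stands at the outer TSS, with its summit at −123 from it and 3517 bp from the intronic summit. Its signal was 51.5 in replicate 1 and 36.3 in replicate 2, and 88.7 in the combined list, where it ranked 2299. It is one of the weakest reproducible peaks of the map. The intronic signal exceeded it 14 times in replicate 1, 15.5 times in replicate 2 and 14.5 times in the combined list, so both replicates placed the binding near the inner start far above that at the outer one. The outer peak also lies within 2 kb of l(3)neo38. Replicate 2 listed a further region between the intronic peak and the inner TSS, at −317, with a signal of 51.8, and replicate 1 listed none there. Outside the gene, the next reproducible summits stood 25800 bp to the right of the intronic summit and 104268 bp to its left.

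**Figure D1:**
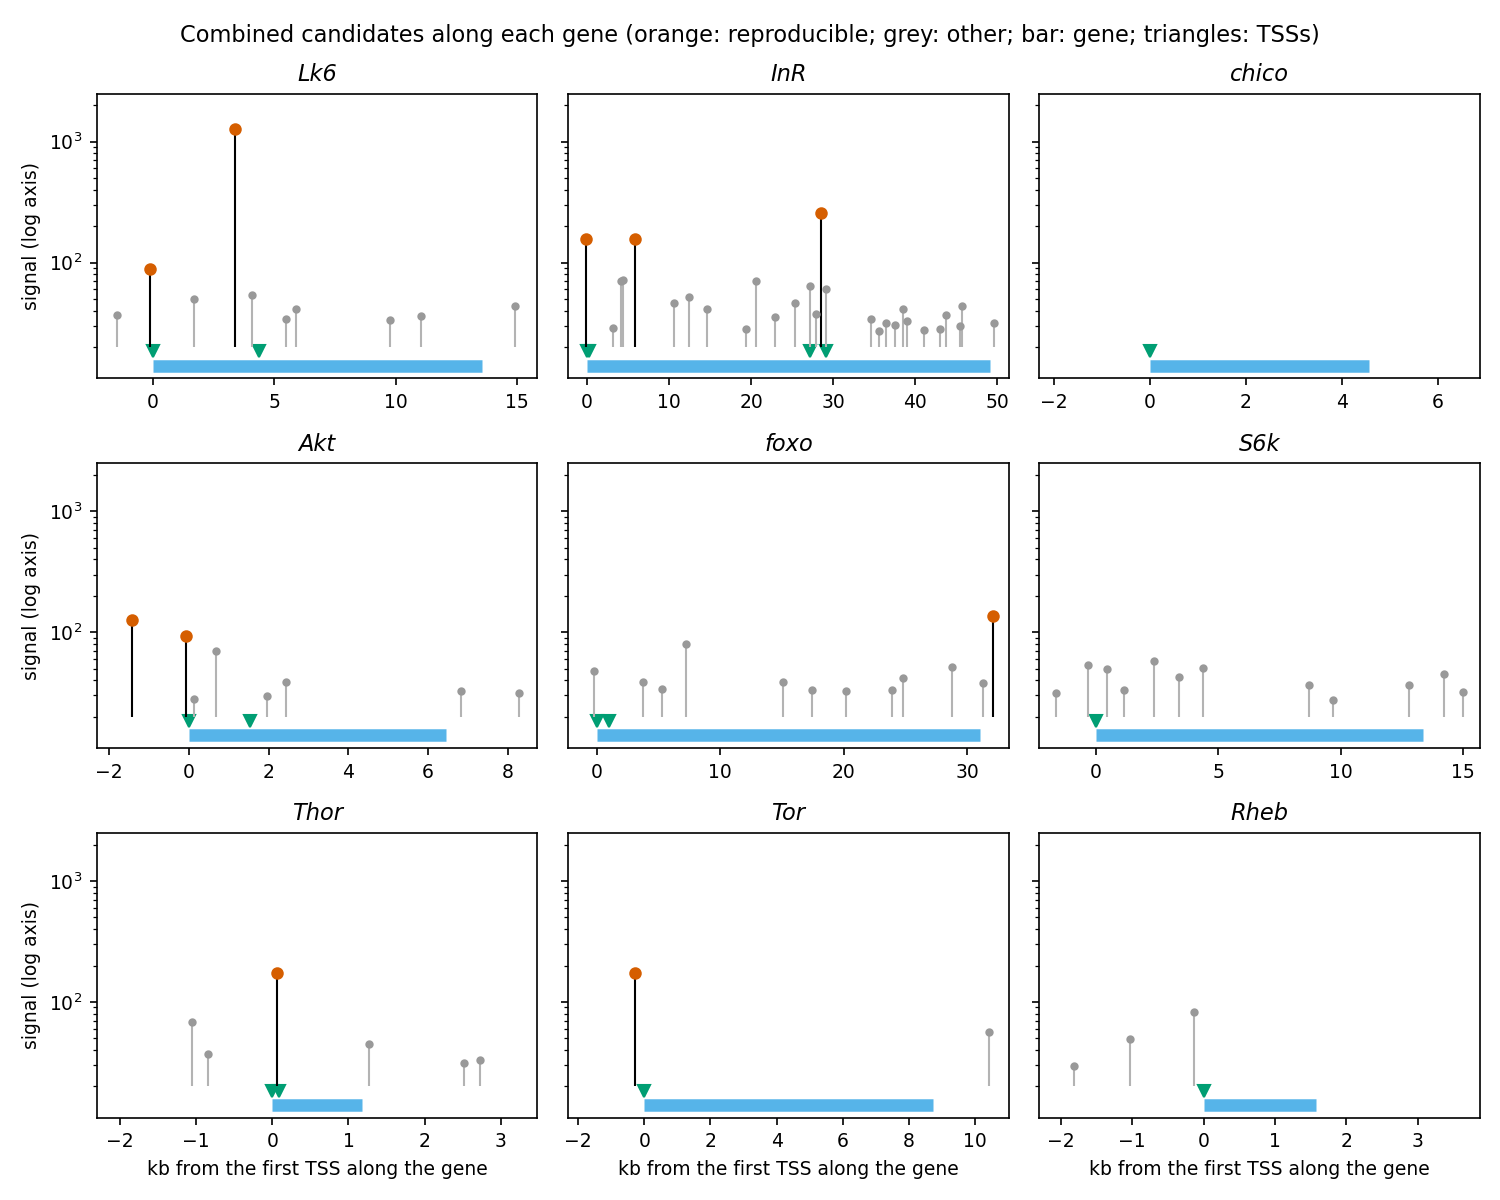
Combined candidate regions along each of the 9 genes. The x axis gives the distance of each summit from the first TSS in kb, in the direction of transcription, and the y axis the signal in the authors' unit on a log scale. Orange points are reproducible peaks, grey points other candidates, blue bars the genes and green triangles the TSSs. The Lk6 intronic peak at 1283.5 stands far above every other region, and chico has no candidate.

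InR, the only insulin receptor gene of the fly (FBgn0283499, 49074 bp on the minus strand of 3R, 21570248 to 21619321), held 3 reproducible peaks, more than any other of the 9 genes. The strongest was in an intron at −640 from the innermost of its 4 TSSs, with a signal of 105.6 in replicate 1 and 146.2 in replicate 2, and 255 in the combined list (rank 310). As at Lk6, the strongest peak thus lay within 1 kb upstream of the innermost TSS and not at the outermost. At 134 bp the listed region was the narrowest of the 10. The outermost TSS had a peak at −73, with 92.2 in replicate 1, 76.5 in replicate 2 and 156 in the combined list. The replicate summits there were 112 bp apart, above the upper quartile of 46 bp for all peaks, and the gene E2f1, a cell cycle transcription factor, lies within 2 kb. The third peak, in an intron at +5530 from the second TSS, differed more between the replicates, with 47 in replicate 1, 112.7 in replicate 2 and 155.2 in the combined list. Its replicate ratio stood at −2.2 SD from the median.

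The adaptor gene chico (FBgn0024248, 4567 bp on 2L) was the only one of the 9 with no candidate in the combined list, as were 16.5% of all protein-coding genes. Replicate 1 listed no region there. Replicate 2 listed 4, the strongest with a signal of 20 at rank 16640. The depth behind the lists is not known, and the lists keep a fixed number of regions, so chico is described only as having no listed combined region.

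Akt (FBgn0010379, 6443 bp on the plus strand of 3R) had peaks at −68 and −1433 from its first TSS. The peak at −68 had a signal of 58.3 in replicate 1, 33.9 in replicate 2 and 93.7 in the combined list. The peak at −1433 had 81.7 in replicate 1, 31.5 in replicate 2 and 125.9 in the combined list. Both were stronger in replicate 1, by 1.12 and 2.09 SD above the median ratio, and ranked 4702 and 5608 in replicate 2. The farther peak is nearer to the start of Mhcl, a myosin heavy chain-like gene, at +966 from that TSS. The peak at −68 lies between the starts of Akt and Mhcl, at −399 from the Mhcl TSS. The list cannot tell which gene it belongs to. In replicate 2 the strongest Akt region was another one, at +681 in an intron, with a signal of 58.5, where replicate 1 listed none.

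The transcription factor gene foxo (FBgn0038197, 31034 bp on the plus strand of 3R) had 1 reproducible peak within 2 kb, beyond its 3′ end. It had a signal of 85.9 in replicate 1 and 55.4 in replicate 2, and 137.5 in the combined list. Its nearest start is that of Npc2b, a sterol-binding protein gene, at −537. At the foxo starts themselves the lists held a candidate at −194 of 47.9 in the combined list, not a reproducible peak. A region in an intron, at +6280 from the second TSS, had 80.2 in the combined list, with 27.3 in replicate 1 and 52 in replicate 2. Outside the 2 kb window, 2 reproducible peaks stood upstream of foxo with its TSS as the nearest, at −3286 with a signal of 146.6 and at −4553 with 165.3. These had 80.8 and 81.2 in replicate 1 against 59.8 and 78.8 in replicate 2. Each was stronger than the peak at the 3′ end in the combined list and in replicate 2, and weaker in replicate 1.

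Tor, the kinase at the centre of the TOR complexes (mTor in the annotation, FBgn0021796, 8718 bp on the plus strand of 2L), had a peak at −270 with a signal of 109.9 in replicate 1, 56.5 in replicate 2 and 172.4 in the combined list. The summit lies between Tor and the divergent gene Vha68-1, which encodes a subunit of the vacuolar proton pump, and is nearer to Vha68-1, at −103 from its TSS. The list cannot tell which of the 2 genes a shared promoter peak belongs to. Apart from it, Tor had a single weaker candidate, so its density of 1.57 candidates per 10 kb was below the lower quartile of 1.59 for all genes.

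Rheb, the GTPase gene that activates Tor (FBgn0041191, 1571 bp on the plus strand of 3R), had a candidate at −130, between its TSS and that of CG2931. The signal was 35.6 in replicate 1, 48.1 in replicate 2 and 82.7 in the combined list, rank 2554, so it stands just below the weakest reproducible peak. It lay among the strongest 2433 regions of replicate 2 and not of replicate 1. Among the 9 genes, the nearest values on the reproducible side were 88.7 at the Lk6 outer start and 93.7 at Akt. On the other side the next of these genes after Rheb were 80.2 in the foxo intron and 71.3 in InR. A reproducible peak at −3150, with a signal of 89.1, was nearer to the start of CG12746.

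S6k, the kinase that phosphorylates a ribosomal protein of the small subunit (FBgn0283472, 13383 bp on the minus strand of 3L), had 12 combined candidates and no reproducible peak. The strongest, at +2383 in an intron, had 27.5 in replicate 1, 26.8 in replicate 2 and 57.6 in the combined list. The candidate nearest its promoter, at −296, had 53.9 in the combined list and is nearer to the start of kri. The reproducible peak closest to the S6k window stood at −2325, with a signal of 94.3, and at −163 from the TSS of mad2. S6k had 6.9 candidates per 10 kb, above the upper quartile of 4.77 for all genes, but all of them were weak.

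Thor, the 4E-BP gene (FBgn0261560), is the shortest of the 9 at 1179 bp on the plus strand of 2L, with 2 TSSs 88 bp apart. Its peak, at chr2L:3478305-3478674, has its summit between the 2 starts, in the 5′ UTR and at −32 from the second. The signal was 49.8 in replicate 1 and 125.4 in replicate 2, and 173.1 in the combined list (rank 687). Replicate 2 was thus far higher, and the log2 ratio of −1.33 stood at −2.32 SD from the median, the largest departure of the 10. The replicate summits were 4 bp apart, so the replicates differ in height and not in place. A further candidate at −1051 reached 55.1 in replicate 2, 28.8 in replicate 1 and 67.8 in the combined list. Thor had the highest density of candidates, 11.59 per 10 kb, against a median of 3.05 for all genes.

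**Figure D2:**
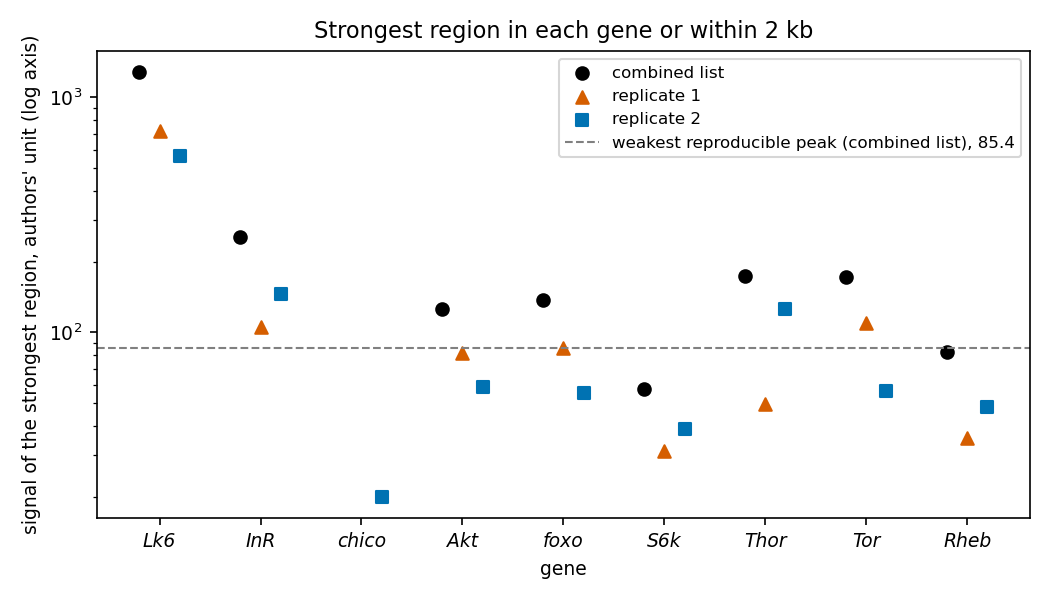
Signal of the strongest region in each of the 9 genes or within 2 kb, in the authors' unit on a log axis. Circles are the combined list, triangles replicate 1 and squares replicate 2, each the strongest region of its own list, and the dashed line marks the weakest reproducible peak (85.4). Lk6 leads in every list, Rheb at 82.7 lies just under the line, and chico appears in replicate 2 alone.

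Each gene was also ranked by its strongest signal among all 13945. Lk6 ranked 8 in all 3 lists. InR ranked 977 in replicate 1, 376 in replicate 2 and 586 in the combined list. Thor ranked 2870 in replicate 1, 517 in replicate 2 and 1221 in the combined list. Tor ranked 907 in replicate 1, 2409 in replicate 2 and 1232 in the combined list. Thor and Tor are level in the combined list, and the replicates place them in opposite order. The combined order of foxo, at 1770, and Akt, at 1985, was the same in replicate 1 and reversed in replicate 2, so the order of both pairs depended on the replicate. Rheb ranked 3569 and S6k 5398 in the combined list. The median of the strongest signals was 137.5 for the 9 genes and 47.4 for all genes, whose upper quartile was 84.3. These values were not matched for gene length, and 137.5 is the foxo peak, whose nearest start is that of Npc2b.

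Replicates differed more at several of these peaks than at the Lk6 intronic peak. Of the 10 peaks, 7 had a replicate ratio above the median of all peaks, where 50% lie by definition, and 5 lay more than 1 SD from it, against 27% of all matched peaks. With 10 peaks of 6 genes these counts are a description. All 10 fell among the strongest 2433 regions of replicate 1 and 7 among those of replicate 2, against 83% and 82% of all reproducible peaks, so these counts are near those of any peak. The Akt peaks and the outer Lk6 peak were missing from the strongest of replicate 2. By gene, 6 of the 9 had a summit among the strongest of replicate 1, against 24.6% of all genes, and 7 among those of replicate 2, where Rheb joined, against 23.8% of all genes. Over the 81 combined candidates of the 9 genes, 40 overlapped a region in both replicates, against 45.1% of all 30000 candidates. InR gave 13 of its 28, foxo 8 of 12, Lk6 5 of 10 and S6k 4 of 12.

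**Figure D3:**
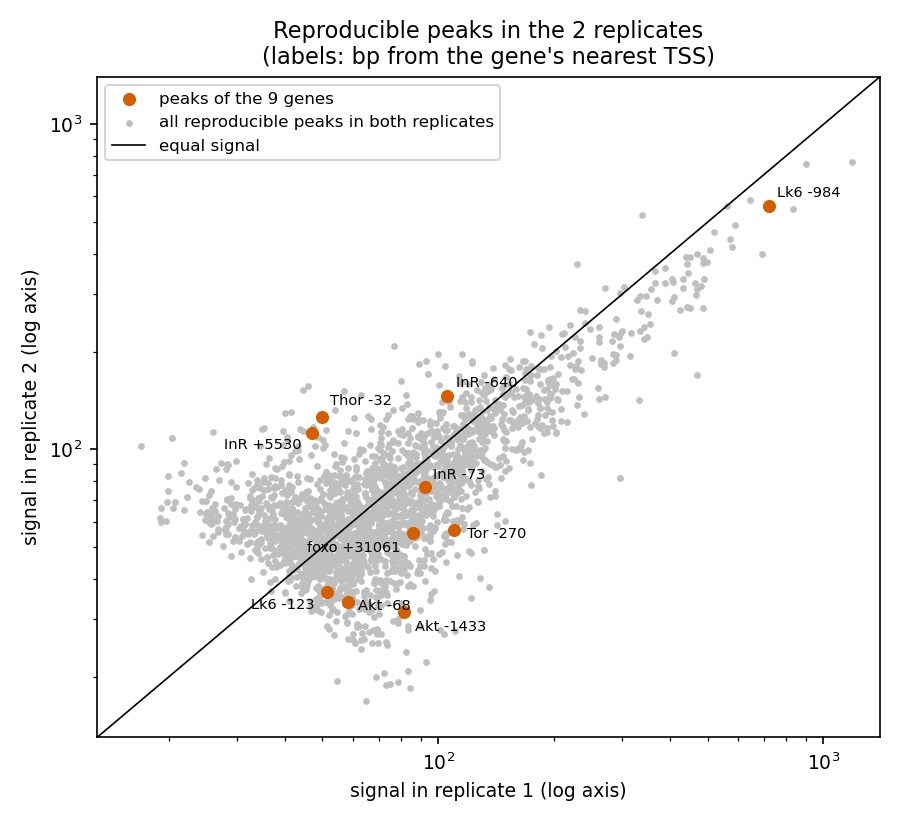
Signal of each reproducible peak in replicate 1 (x axis) and replicate 2 (y axis), in the authors' unit on log axes. Orange points are the 10 peaks of the 9 genes, labelled with bp from the gene's nearest TSS, grey points are all reproducible peaks found in both replicates, and the line marks equal signal. Lk6 at −984 sits at the upper right near the line, Thor and InR at +5530 lie above it, and both Akt peaks lie below it.

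The summits of the 10 peaks lay within 1 kb of a TSS of the named gene in 7 cases and within 100 bp in 3. Counting any protein-coding TSS, 9 lay within 1 kb and 3 within 100 bp, against 66.4% and 33.2% of all reproducible peaks. By place, 5 were upstream of the first TSS, 3 in introns (Lk6 and InR), 1 in the 5′ UTR (Thor) and 1 downstream (foxo). The nearest protein-coding TSS was the named gene's own for 7 peaks, in Lk6, InR, Thor and Akt, and another gene's for 3, in Tor, foxo and Akt. For 6 of the 10 another protein-coding gene lay within 2 kb. The counts by place, nearest TSS and neighbouring gene were not taken over all reproducible peaks, so they are a description. The 71 weaker candidates of the genes add no firm site.

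GC content in the windows of 201 bp ran from 33.3% at foxo and 34.3% at the Lk6 intronic peak to 49.8% at the outer InR start, around a median of 38.8% for all peaks with quartiles of 34.8% and 43.3%. Motif matches were few. The FOXO core GTAAACA occurred in 2 of the 10 windows, against 6.91% of all reproducible peaks, 3.98% of the 27267 lower-ranked candidates and 6.12% of the TSS windows. These windows were the Lk6 intronic peak, 33 bp from the summit, and Thor, 39 bp from the summit and just downstream of the second start. The homeodomain core TAATTA, the letters bound by many homeodomain proteins, occurred in 1 window, that of Tor, against 11.3% of all peaks, 7.21% of lower-ranked candidates and 9.39% of TSS windows. The Lk6 intronic peak, with a signal of 1283.5, held no TAATTA, nor the P3 homeodomain dimer, which was added after the values were seen and occurred in 1.52% of peaks.

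The promoter elements DRE (TATCGATA, in 6.04% of reproducible peaks), Ohler motif 1 (GGTCACACT, 2.38%) and Ohler motif 7 core (CAGCNCTG, 7.36%) occurred in none of the 10 windows, nor did the pyrimidine tract CTTTCT (13.4%). TATAAA occurred at Thor, at −29 from the first TSS, and at foxo, against 25.6% of all peaks. GAGAGAG occurred at Lk6 and at the Akt peak at −68, against 5.14%. The printed Thor sequence also holds it, in lower case, farther than 100 bp from the summit and so not counted. CACGTG, the site of Myc and its partners, occurred in the InR peak at +5530, against 3.21% of peaks. CACCTANNG, chosen after the values were seen, occurred at foxo, in 2 copies, and at the outer InR start, against 2.1% of peaks, 1.08% of lower-ranked candidates and 1.01% of TSS windows. A match in a window is a description of the letters there and says nothing of which protein was bound.

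A longer word at the Lk6 peak recurred elsewhere. The most frequent 12-base word in its window among the reproducible summits, picked after the counts were seen, was tttctttcagtg at chr3R:11761110-11761121, whose reverse complement stands just after the GAGA repeat in the printed sequence. It lay within 100 bp of 20 of the 2433 reproducible summits (0.822%), of 38 of the 27267 lower-ranked candidates (0.139%) and of 8 of the 19252 annotated starts. The 20 include the Lk6 peak itself. The word was picked for its count at reproducible summits, so the higher share there follows from that choice. On the chromosome arms the word occurred 412 times. No other peak of the 9 genes held it, and the next word of the window was found at 11 summits. The median signal of the 20 peaks was 158.

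By summed absolute log2 difference in signal over the 3 lists, the promoter peaks most like that of Lk6 were those of px, Ugalt and mRpL41. The px peak had 644.5 in replicate 1 and 585.3 in replicate 2, a distance of 0.29. The Ugalt peak had 833.1 and 547.3, a distance of 0.35. The mRpL41 peak, in a mitochondrial ribosomal protein gene, had 590.8 and 491.7, a distance of 0.74. Their summits lie at −191, −45 and −127 from the TSS, nearer than the Lk6 summit at −984.

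The rest of the pathway was described by 74 other genes in 9 roles. Of these, 30 (40.5%) held a reproducible peak in the gene or within 2 kb and 24 (32.4%) within 1 kb of a TSS. All genes gave 28.8% and 18.2% at the same lengths, with 33 of the 74 in the longest group. For 20 of the 30 the strongest peak was nearest to the gene's own TSS. This leaves out ImpL2, Sesn and eIF4G2, where another gene's TSS was equally near. Of the 74, 10 had no candidate, against 16.5% of all genes. The strongest signals of the 30 ran from 87.3 to 497.9, so none approached the Lk6 peak. Their median over all 74 was 65.8.

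Among 11 ligand and ligand-binding genes, 2 (18.2%) had a peak, near the 24.7% of all genes. None had one within 1 kb of a TSS, against 15.8% of all genes. The 2 genes with a peak were ImpL2, whose product binds insulin-like peptides, and the ligand gene Ilp6. The ImpL2 region, of 232.7 in an intron, lay at −1060 from its own TSS and equally from that of CG46460. The Ilp6 region had 175.5 beyond the 3′ end of the gene. Another 2 of the 11 had no combined candidate, against 16.5% of all genes. Among 7 adaptor and PI 3-kinase genes, 5 (71.4%) had a peak and 4 (57.1%) had one at a promoter. All genes gave 24.7% and 15.8%. With so few genes in a role, the counts by role are a description. The shares of all genes set beside each role were not matched for gene length. Every adaptor and PI 3-kinase gene with a peak belongs to the longest group. Pi3K21B, the regulatory subunit of PI 3-kinase, had 320.1 at −6, with 183.9 in replicate 1 and 134.2 in replicate 2. The adaptor gene drk had 190 in an intron nearest to mars, melt had 179.8 at −191, and the catalytic subunit gene Pi3K92E had 115.3.

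Around TOR itself, 2 of 8 genes of the TSC and TOR complexes (25%) had a peak, near the 24.7% of all genes. Both had one at a promoter (25%, against 15.8% of all genes). They were PRAS40, an inhibitor within the first TOR complex, with 127.7, and Sin1, a subunit of the other complex, with 103.3. Among 15 amino acid and energy inputs, 6 (40%) had a peak and 5 (33.3%) had one at a promoter, against 24.7% and 15.8%. Sesn, encoding a sestrin, had 497.9 at −220 from its own TSS and equally from that of CG46429. The beta subunit gene of AMP-activated kinase, alc, had 450.8, nearest to CG44286. The region of mio, a component of the amino acid sensing GATOR complex, had 315.6 and lay at the start of papi, and SNF4Agamma, the gamma subunit, had 154. Of the 3 MAP kinases that act upstream of Mnk kinases in mammals, 1 (33.3%) had a peak. It was p38a, with 93 at −26.

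Among 12 translation genes downstream, 5 (41.7%) had a peak, all with one at a promoter, against 24.7% and 15.8% of all genes. Another 5 had no candidate, against 16.5% of all genes. The eIF4EHP region had 176.7 and is nearest to CG18428, that of eIF4A 150 and nearest to ifc, and that of eIF4G2 105.2 and shared with CG33111. RpS6, the S6k substrate, had 89 at +15. The gene of eIF4E1, named here in addition since Lk6 and Thor act on this factor, had 88.6 at +5, below RpS6 and near the lower end of the reproducible list. Among 9 transcription outputs, 6 (66.7%) had a peak and 5 (55.6%) had one at a promoter, against the same 24.7% and 15.8%. They were led by bigmax, the partner of the sugar sensor Mondo, with 316.8 at −100. REPTOR, a factor that TOR holds out of the nucleus, had 167.8, the growth regulator Myc 124.6 in an intron, and its antagonist Mnt 121.4. Of 5 regulators of foxo, 2 (40%) had a peak. The phosphoprotein-binding gene 14-3-3zeta had 216.9 at −26 and puc, a phosphatase that restrains JNK, 166.9 in an intron. Of 4 autophagy initiation genes only Atg17 (25%) had one, with 248 and nearest to Xe7. All genes gave 24.7%.

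**Figure D4:**
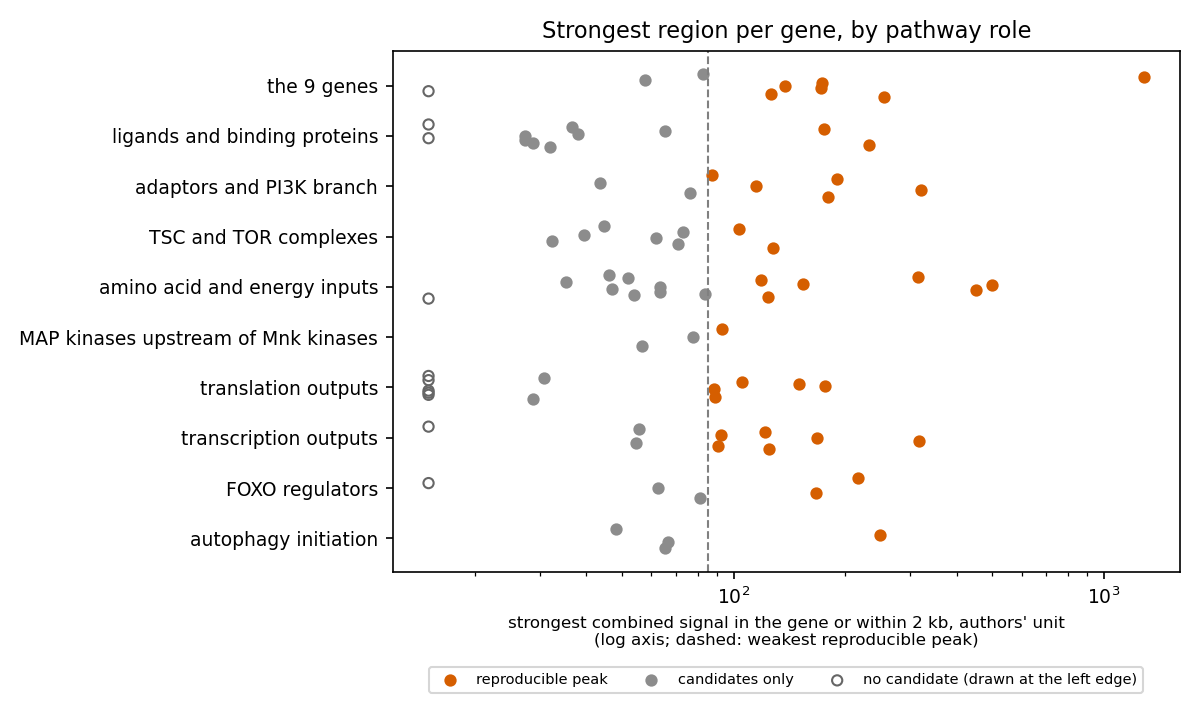
Strongest combined signal in each gene or within 2 kb, in the authors' unit on a log axis, for the 9 genes (top) and the 74 other pathway genes by role. Orange points are genes with a reproducible peak, grey points genes with weaker candidates, open circles genes with none, drawn at the left edge, and the dashed line is the weakest reproducible peak. Lk6 at 1283.5 stands to the right of every other gene, and the ligand row has 2 orange points of 11.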

How the data were processed

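The 4 dm6 peak lists of a ChIP-seq against GFP-tagged CG9876 in 2 biological replicates of 1 group were used. The authors called regions against a control in each replicate and in both together, and kept a reproducible list by irreproducible discovery rate, per the deposited text files. The sources used here give no aligner, peak caller or read depth, so the counting error of a region is unknown. The signal is the authors' own value per deposited region and served to describe and rank regions within a list. The deposited lists also hold −log10 of a q-value, used for an alternative ranking. The dm3 copies were not analysed here.

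Genes came from Ensembl release 115 and sequence from RefSeq, both dm6. Of the gene symbols, 2 were matched through RefSeq synonyms, among them Tor, which is mTor in Ensembl. A gene was given every summit in its body or within 2 kb, and a promoter every summit within 1 kb of a transcription start site. A replicate's value at a combined region is that of its strongest region holding the combined summit. Either strand was searched for motifs up to 100 bp from each summit, and windows of the same length around 19252 annotated starts took the place of a promoter table. Named genes were the 9 genes, up to 4 bound genes per role with the highest signal, the 3 promoter peaks most like that of Lk6, and the genes nearest to each summit. The genes, lists and motifs were chosen with earlier results of these data known. No test between conditions was possible with 1 group. Alternatives covered the windows, the assignment by summit or overlap, the list, its strength and each replicate alone. Python 3.11.15, numpy 2.4.6, pandas 2.3.3 and matplotlib 3.10.9 were used, and the counting steps were tested on simulated data.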

Additional observations from a re-analysis of the deposited data

How the results depend on the processing

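Of 33 alternatives, 27 kept the count within 1.5 times its main value or kept the rank. Counting only summits inside gene bodies left 3 of the 9 genes with a reproducible peak (Lk6, InR and Thor) in place of 6, against 7.42% of all genes, since the other peaks lie outside the annotated gene. A 5 kb window gave 8 of the 9 genes, all but chico, against 35.3% of all genes. Keeping only the stronger 50% of reproducible peaks left 16 other pathway genes with a peak in place of 30, and 10 with a promoter peak in place of 24, on a list of fewer peaks. The share of all genes was not taken on that shorter list, so these counts are a description. With a replicate left out, the strongest Lk6 region ranked between 4 and 5, the 9 genes gave 6 to 7 with a peak and 5 to 6 with a promoter peak, and the other pathway genes gave 27 to 32 and 20 to 24. Ranking by q-value put the Lk6 region at 1, a rank it shares with every region at the lowest q-value of the list. Of 40 candidates of the 9 genes found in both replicates, 7 lay among the strongest regions of both. That count was not taken over all candidates, so it is a description. In place of the count within 1 kb of a TSS, assigning each summit to the nearest start, however far, gave 5 genes, with foxo in place of Tor. The reproducible peaks nearest to a foxo start lie at −3286 and −4553, so foxo gained no promoter peak. No paired analysis was possible because both replicates belong to 1 group. Read depth was not given, so how far a missing region reflects depth was not tested.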
